A study of Mus musculus with 8 samples.

Results

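The Ras, Raf, MEK and ERK genes of the mouse genome were examined in 8 RNA-seq libraries of epiblast from mouse embryos shortly after implantation. The epiblast is the pluripotent layer that gives rise to the body. The 8 genes were taken by symbol from the 52636 genes of the count table: Hras and Nras, Araf and Braf, Map2k1 and Map2k2 (which encode MEK1 and MEK2), Mapk3 (which encodes ERK1) and Ksr1. All 8 passed the filter on low counts, which kept 18321 genes in all. The symbols say which gene was counted, and not that every read came from the endogenous locus. All embryos were at embryonic day 5.5 and carried Sox2Cre, a Cre transgene driven by the promoter of the epiblast gene Sox2, and CRAFR26, an inducible Raf construct through which ERK is switched on by 4-hydroxytamoxifen (4OHT). The vehicle embryos carried both alleles too. The mouse line came from embryonic stem cells injected into morulae, and the libraries came from clone 4 or clone 8 of it. Embryos of the 4OHT groups were treated with 250 nM 4OHT for 4 h and those of the vehicle groups with ethanol for 4 h, and the extraembryonic layers were then dissected off. The vehicle libraries also bear a label of 0 h. They are taken here as 4 h controls, and if they were not cultured, the comparison also holds 4 h of culture. Each of the 4 groups of clone and treatment had 2 libraries, each prepared from 7 ng of RNA that had been taken from 10 epiblasts together. Nothing states that the 2 libraries of a group came from separate litters, so the p-values measure the spread between these libraries, which may be technical.

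The ERK cascade is a chain of switches. Ras proteins are small GTPases at the membrane that bind Raf kinases when loaded with GTP, Raf kinases phosphorylate the MEK kinases, and MEK kinases phosphorylate the ERK kinases, which carry the signal to substrates in the cytoplasm and nucleus. Ksr1 is a relative of the Raf kinases that acts mainly as a scaffold holding Raf, MEK and ERK together. Mammals have several paralogs at each step. In the epiblast the cascade is driven largely by FGF signalling, and it acts in the exit from naive pluripotency. The construct used here enters at the Raf step, so the endogenous Ras genes lie upstream of it and the MEK and ERK genes downstream. RNA levels say nothing of the phosphorylation or amount of these proteins.

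Paralogs of a tier can only be compared where their reads can be told apart, and the coding sequences show where that is easy and where it is hard. Coding sequences of Hras and Nras were identical at 75.3% of aligned bases, and Ras proteins are known to differ most in the hypervariable region at their end, where lipid anchors are attached. The last 72 coding bases before the stop codon, each within 1 exon, are shown for that reason, at chr7:141191351-141191422 on the minus strand for Hras and chr3:103063375-103063446 on the plus strand for Nras (GRCm38, the build also called mm10). Capitals mark the bases that differ between both genes when they are aligned without gaps, and 35 of the 72 bases were identical (48.6%).
Hras: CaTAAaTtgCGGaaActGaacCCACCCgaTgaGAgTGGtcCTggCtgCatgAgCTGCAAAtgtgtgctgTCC
Nras: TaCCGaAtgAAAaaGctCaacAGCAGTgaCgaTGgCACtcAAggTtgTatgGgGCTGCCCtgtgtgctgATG
In the MEK pair 78.2% of aligned coding bases were identical, close to the 75.3% of Hras and Nras. A stretch of the opposite kind is shown for this pair. The longest coding stretch shared without a mismatch was 56 bases, shown because a short read inside it fits both genes. It lies over 2 exons in each gene, at chr9:64212584-64212631 and chr9:64205181-64205188 on the minus strand for Map2k1, and at chr10:81115125-81115172 and chr10:81118152-81118159 on the plus strand for Map2k2.
Map2k1 and Map2k2: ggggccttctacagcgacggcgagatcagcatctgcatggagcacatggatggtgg
Of all 50-base stretches of their exons, 0.207% of those of Map2k1 were found in Map2k2 as well and 0.122% the other way. Genes whose exons overlap those of a member were left out of this search. The share found in any of the remaining annotated genes was 0 for Hras, Braf and Ksr1, 0.0428% for Mapk3, 0.733% for Nras and 1.13% for Araf. Exons of Araf overlap Syn1, those of Braf overlap Ndufb2 and those of Ksr1 overlap Gm11201, each on the opposite strand. The use of strand in counting is not given in the sources used here, so reads from such an overlap cannot be told apart.

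Library totals ran from 33.3 M to 38 M counts in the 4 vehicle libraries and from 56.4 M to 72.5 M in the 4 4OHT libraries. The 10 epiblast markers summed to between 5580 and 7040 CPM (counts scaled to the size of the library, here with TMM, edgeR's trimmed mean of M values) in every library. Tissue outside the epiblast was represented too. The 15 visceral endoderm markers summed to between 958 and 4750 CPM and the 12 extraembryonic ectoderm markers to between 234 and 862 CPM, and no marker of either list was at 0 in any library. The 8 blood and decidua markers summed to between 4.09 and 24.1 CPM, with 1 to 5 of them at 0 in a library. Summed Y-linked genes were at 3.64 CPM in replicate 2 of 4OHT clone 4 and at 51.6 CPM or above elsewhere. In bulk tissue of this kind, fewer cells of a type and less RNA per cell cannot be told apart. Egr1, an immediate early gene that ERK induces, lay between 5.77 and 18.2 CPM in the vehicle libraries and between 55.4 and 379 CPM in the 4OHT libraries, with no overlap.

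All 4 tiers of the cascade were represented at unequal levels in vehicle epiblast. To compare genes, CPM was divided by the length of all annotated exons of a gene (CPM per kb), and each level is the mean over the 4 vehicle libraries. Nras, a Ras GTPase, had the highest level at 55.0 ± 5.38 CPM per kb (SD, n = 4). Map2k1 followed at 39.2 ± 8.65, Map2k2 at 29.4 ± 2.26 and Mapk3 at 23.7 ± 5.58 CPM per kb. Araf stood at 11.7 ± 0.83, Hras at 5.67 ± 3.11 and Braf at 3.30 ± 0.995 CPM per kb. Ksr1 stood at 0.161 ± 0.0585 CPM per kb, far below the others. Nras lay above Map2k1 in every vehicle library with no overlap of their ranges. The ranges of Map2k1 and Map2k2 overlapped, as did those of Map2k2 and Mapk3, and Hras lay above Braf in only 2 of the 4 libraries, both of clone 8. The order of the first 3 places depended on the length used. With the longest transcript as length, Map2k2 came first at 69.3 ± 5.33 CPM per kb, before Nras at 65.6 and Map2k1 at 54.5, while the order from Mapk3 down to Ksr1 was the same with either length and with coding length.

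**Figure D1:**
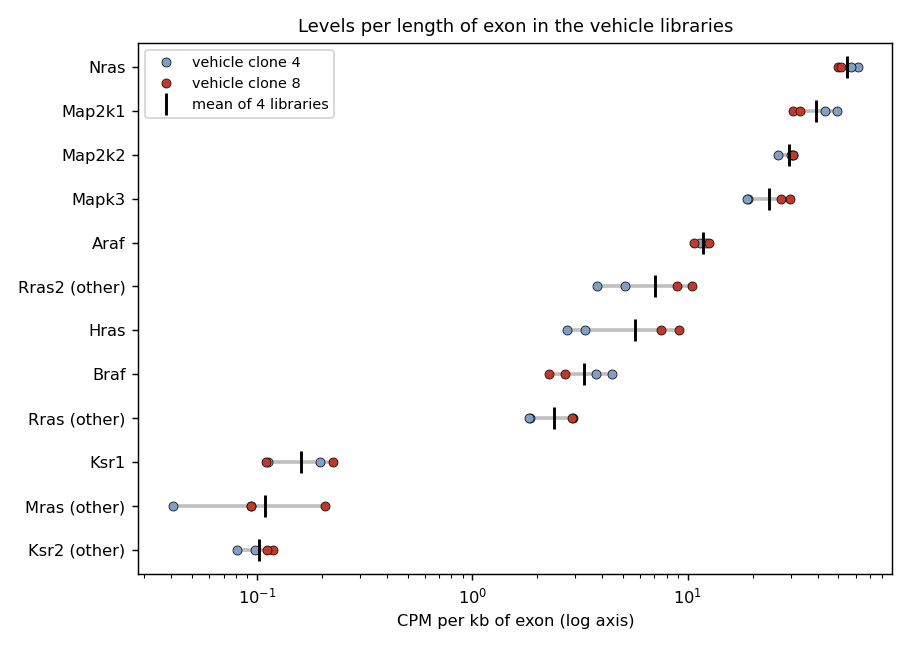
Levels of the 8 genes and of 4 other genes of the same tiers (marked other) in vehicle epiblast, in CPM per kb of exon on a log axis. Points are the 4 vehicle libraries coloured by clone, grey bars span their range and black ticks are their means; Nras is highest at 55.0 and the genes from Ksr1 down lie below 0.3.

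The 4 other genes described here were interspersed with the members. The Ras-related GTPase genes Rras2 and Rras stood at 7.03 ± 3.10 and 2.38 ± 0.619 CPM per kb (SD, n = 4). Mras, another of that family, stood at 0.109 ± 0.0698 and the scaffold gene Ksr2 at 0.102 ± 0.0165 CPM per kb. Per kb of all exons, Rras2 lay above Hras in all 4 vehicle libraries, with overlapping ranges, and Rras lay above Ksr1 with no overlap. The range of Ksr1 overlapped that of Mras. Some of these orders depended on the length used. With the longest transcript as length, the mean of Hras (7.49 CPM per kb) lay above that of Rras2 (7.07). With coding length, the means of Mras (0.894) and Ksr2 (0.487) lay above that of Ksr1 (0.437).

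The design asks whether the genes of the cascade change after 4 h of ERK induction, and whether they do so in both clones. In clone 4 none of the 8 genes passed the test. In clone 8 Hras and Mapk3 fell and Braf rose, while Nras, Araf, Map2k1, Map2k2 and Ksr1 did not pass the test. The clone 8 response starts from vehicle libraries that already stood apart from those of clone 4, with high Hras and Mapk3 and low Map2k1. After 4OHT, no member differed between the clones by the test.

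The counts behind this come from edgeR's quasi-likelihood test, with Benjamini-Hochberg adjustment over all 18321 genes and a call at an adjusted p under 0.05. In clone 8, 3 of the 8 members were called, against 16.6% of all tested genes. One was higher, against 8.00% of all genes, and 2 were lower, against 8.60%. DESeq2 called the same 3, where it called 23.5% of all genes. The median log2 fold change of the 8 was 0.01, beside 0.07 for all genes. In clone 4, 0 of 8 were called by edgeR (0.0382% of all genes), 0 at an unadjusted p under 0.05 (9.90% of all genes) and 0 by DESeq2 (2.55%). With both clones in 1 fit with the clone as a term, 0 of 8 were called (0.00546% of all genes). At an unadjusted p under 0.05 in that fit, Braf was higher and Hras lower (16.9% of all genes), and DESeq2 called 0 of 8 (5.75%). The mean of both within-clone responses, taken from the fit of 4 groups, called 2 of 8, where it called 5.80% of all genes. These were Braf at adjusted p = 0.0311 and Hras at 0.0369. The test of the difference between the responses, that of clone 8 minus that of clone 4, called 2 of 8, Hras and Mapk3, both lower. It called 2.83% of all genes, and 1.75% of all genes as lower, and DESeq2 called Braf besides these 2 where it called 10.2% of all genes. Between the vehicle groups, clone 8 was higher than clone 4 for Hras and Mapk3 (4.06% of all genes were higher) and lower for Map2k1 (4.31% were lower), 3 of 8 members against 8.37% of all genes. DESeq2 called Braf besides these 3, where it called 16.7% of all genes.

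These comparisons are not independent. The clone 8 response, the difference between responses and the contrast of vehicle groups all use the 2 vehicle clone 8 libraries, so their values are given side by side and not as support for each other. The clone 8 calls also rest on 1 of these libraries. Without replicate 1 of vehicle clone 8, the changes were of similar size (Hras -1.40, Braf 1.14 and Mapk3 -0.82 on the log2 scale) and 0 of 8 members were called, with adjusted p of 0.0813, 0.0977 and 0.0790, where 0 of all genes were called. In the 7 fits that left out another library, all 3 were called.

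**Figure D2:**
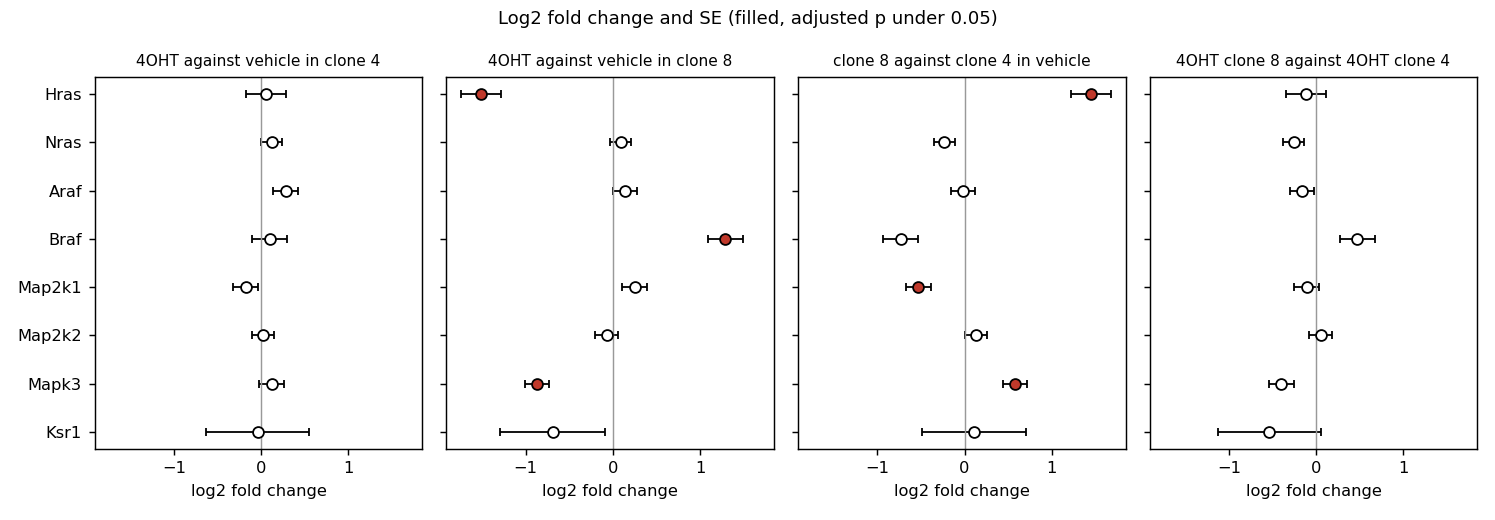
Log2 fold changes of the 8 genes in 4 contrasts, with bars of 1 SE from the fit of 4 groups and filled points at an adjusted p under 0.05. Hras at -1.51, Braf at 1.29 and Mapk3 at -0.87 are filled in clone 8, and none is filled in clone 4 or between the 4OHT groups.

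Among the Ras members, Hras fell in clone 8 and Nras did not pass. Hras (chr7:141189105-141194005, minus strand) encodes a Ras GTPase that is anchored by lipids at the plasma membrane. It was at 12.4 and 10.3 CPM in vehicle clone 4, 33.8 and 28.1 in vehicle clone 8, 12.7 and 10.9 in 4OHT clone 4, and 12.7 and 9.04 in 4OHT clone 8. The vehicle clone 8 libraries were high, and the groups of the other 6 libraries overlapped. The clone 8 response was a 2.85-fold fall, or -1.51 on the log2 scale (SE 0.23, adjusted p = 0.00917), and that of clone 4 was 0.05 (SE 0.23, adjusted p = 0.973). In vehicle, Hras was 2.73-fold higher in clone 8 than in clone 4 (log2 1.45, SE 0.23, adjusted p = 0.0188). The difference of the responses was -1.56 (SE 0.32, adjusted p = 0.0447). It did not pass without either library of 4OHT clone 4, either of vehicle clone 4 or either of vehicle clone 8 (adjusted p from 0.0550 to 0.183), nor with library totals as scaling (-1.45, adjusted p = 0.0553). The vehicle contrast did not pass without either library of vehicle clone 4 or without replicate 1 of vehicle clone 8 (adjusted p from 0.113 to 0.186).

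Nras (chr3:103058285-103067914, plus strand), the member with the highest level per kb of all exons (below Map2k2 with the longest transcript as length), did not pass in any of the comparisons. It was at 329 and 304 CPM in vehicle clone 4, 266 and 274 in vehicle clone 8, 319 and 371 in 4OHT clone 4, and 304 and 273 in 4OHT clone 8. Within each clone, the vehicle and 4OHT groups overlapped. Its response was 0.12 in clone 4 on the log2 scale (SE 0.12, adjusted p = 0.808) and 0.09 in clone 8 (SE 0.12, adjusted p = 0.611), and 2 SE on either side of the latter ran from -0.14 to 0.33. Per kb, Nras exceeded Hras 18.6 and 20.7 times in vehicle clone 4, 5.51 and 6.82 times in vehicle clone 8, 17.6 and 23.8 times in 4OHT clone 4, and 16.8 and 21.1 times in 4OHT clone 8. That ratio was lowest in the 2 vehicle clone 8 libraries.

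Of the Ras-related genes, Rras2 was also highest in vehicle clone 8. It was at 18.1 and 13.4 CPM in vehicle clone 4, 36.8 and 31.6 in vehicle clone 8, 23.5 and 16.9 in 4OHT clone 4, and 21.5 and 15.5 in 4OHT clone 8. It fell in clone 8 (log2 -0.89, SE 0.25, adjusted p = 0.0398) and was higher in vehicle clone 8 than in vehicle clone 4 (1.12, SE 0.25, adjusted p = 0.0329). Rras lay between 1.80 and 3.29 CPM and Mras between 0.208 and 1.13 CPM, and neither passed in any of the comparisons.

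In the Raf tier, Braf rose in clone 8 and Araf did not pass. Braf (chr6:39603237-39725463, minus strand), the Raf kinase with the highest basal activity, was at 61.7 and 52.2 CPM in vehicle clone 4, 31.4 and 37.5 in vehicle clone 8, 55.0 and 67.3 in 4OHT clone 4, and 99.8 and 69.1 in 4OHT clone 8. Both vehicle clone 8 libraries lay below all others and both 4OHT clone 8 libraries above all others, with 69.1 close to the 67.3 of 4OHT clone 4. The rise in clone 8 was 2.45-fold (log2 1.29, SE 0.20, adjusted p = 0.00929), against 0.10 in clone 4 (SE 0.20, adjusted p = 0.926). The difference of these responses was 1.19 (SE 0.29) and did not pass by edgeR (adjusted p = 0.0613), whereas it passed by DESeq2 (adjusted p = 0.00246), in edgeR without the filter on low counts or with at least 10 counts in every library, and without replicate 2 of 4OHT clone 8 (1.43, adjusted p = 0.0148). In vehicle, Braf in clone 8 had a log2 difference of -0.73 (SE 0.20, adjusted p = 0.0588).

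Araf (chrX:20797814-20860519, plus strand), a Raf kinase of low basal activity, was at 79.7 and 74.6 CPM in vehicle clone 4, 70.2 and 82.4 in vehicle clone 8, 87.4 and 99.8 in 4OHT clone 4, and 87.9 and 79.9 in 4OHT clone 8. The groups overlapped in clone 8 and did not in clone 4. Its response was 0.28 in clone 4 on the log2 scale (SE 0.14, adjusted p = 0.559) and 0.14 in clone 8 (SE 0.14, adjusted p = 0.518), and 2 SE on either side ran from 0.01 to 0.55 and from -0.13 to 0.41. Xist, the RNA of the inactive X chromosome, lay between 8.52 and 62.0 CPM, and its part in Araf levels was not tested. Per kb, Araf exceeded Braf 4.73 and 4.66 times in vehicle clone 8 and 1.87 and 2.45 times in 4OHT clone 8, and between 2.74 and 3.37 times in clone 4. With the longest transcript as length these ratios were 7.61 and 7.49, 3 and 3.94, and between 4.40 and 5.42, in the same order.

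The construct itself lies in this tier. Esr1, whose hormone-binding domain is the usual partner in such tamoxifen-inducible fusions, was between 0.187 and 0.723 CPM in the vehicle libraries and between 5.92 and 6.76 CPM in the 4OHT libraries. Esr1 rose with both clones in 1 fit (3.99, SE 0.42, adjusted p = 0.0470), the only gene called there. Whether reads of the construct enter the Esr1 counts was not tested.

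Neither MEK gene passed the test of the 4OHT response in either clone. Map2k1 (chr9:64185770-64253631, minus strand), which encodes MEK1, was at 148 and 167 CPM in vehicle clone 4, 104 and 112 in vehicle clone 8, 144 and 134 in 4OHT clone 4, and 115 and 143 in 4OHT clone 8. The vehicle clone 8 libraries were the 2 lowest, and those of 4OHT clone 8 overlapped 4OHT clone 4. Map2k1 was 1.45-fold lower in vehicle clone 8 than in vehicle clone 4 (log2 -0.53, SE 0.14, adjusted p = 0.0450), a call that was lost without any 1 of the 4 vehicle libraries or any 1 of the 4OHT clone 4 libraries (adjusted p from 0.0778 to 0.332). Its 4OHT response was 0.25 in clone 8 (SE 0.14, adjusted p = 0.228) and -0.18 in clone 4 (SE 0.14, adjusted p = 0.759).

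Map2k2 (chr10:81105915-81133975, plus strand), which encodes MEK2, varied the least of the 8, with a root-mean-square deviation of 0.110 in log2 CPM over the libraries. It was at 170 and 148 CPM in vehicle clone 4, 175 and 174 in vehicle clone 8, 173 and 150 in 4OHT clone 4, and 152 and 181 in 4OHT clone 8. The 4OHT groups overlapped each other and the vehicle clone 4 group. The response was 0.02 in clone 4 on the log2 scale (SE 0.13, adjusted p = 0.982) and -0.07 in clone 8 (SE 0.13, adjusted p = 0.766), and 2 SE on either side ran from -0.25 to 0.29 and from -0.33 to 0.20.

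In the ERK tier, Mapk3 (chr7:126759601-126765819, plus strand) fell in clone 8. It encodes ERK1, the last kinase of the chain. It was at 43.0 and 42.7 CPM in vehicle clone 4, 67.4 and 60.9 in vehicle clone 8, 45.7 and 47.2 in 4OHT clone 4, and 37.1 and 33.2 in 4OHT clone 8. The 4 groups did not overlap, with vehicle clone 8 highest and 4OHT clone 8 lowest. The clone 8 response was a 1.83-fold fall (log2 -0.87, SE 0.14, adjusted p = 0.00929), against 0.12 in clone 4 (SE 0.14, adjusted p = 0.857). The difference was -0.99 (SE 0.19, adjusted p = 0.0399). It did not pass without either library of clone 4 in either treatment or without replicate 1 of vehicle clone 8 (adjusted p from 0.122 to 0.165), it stood at the threshold without replicate 2 of vehicle clone 8 (adjusted p = 0.05 when rounded, still called), and it did not pass with library totals as scaling (-0.88, adjusted p = 0.0549). In vehicle, Mapk3 was 1.50-fold higher in clone 8 than in clone 4 (0.58, SE 0.14, adjusted p = 0.0369), and this call was lost without either library of vehicle clone 4, either of 4OHT clone 4 or replicate 1 of vehicle clone 8 (adjusted p from 0.0722 to 0.264).

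The scaffold gene Ksr1 (chr11:79013440-79146407, minus strand) was barely represented. It had between 28 and 109 counts per library, or 0.803 and 1.40 CPM in vehicle clone 4, 0.780 and 1.6 in vehicle clone 8, 0.610 and 1.51 in 4OHT clone 4, and 0.818 and 0.651 in 4OHT clone 8. In 3 of the 4 groups the replicates lay further apart than any of the group means did. The response was -0.04 in clone 4 on the log2 scale (SE 0.59, adjusted p = 0.994) and -0.69 in clone 8 (SE 0.60, adjusted p = 0.459). Since 2 SE on either side of the latter ran from -1.89 to 0.51, a change of the size seen for Hras lay within that interval. Ksr2 lay between 1 and 1.77 CPM and did not pass either.

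**Figure D3:**
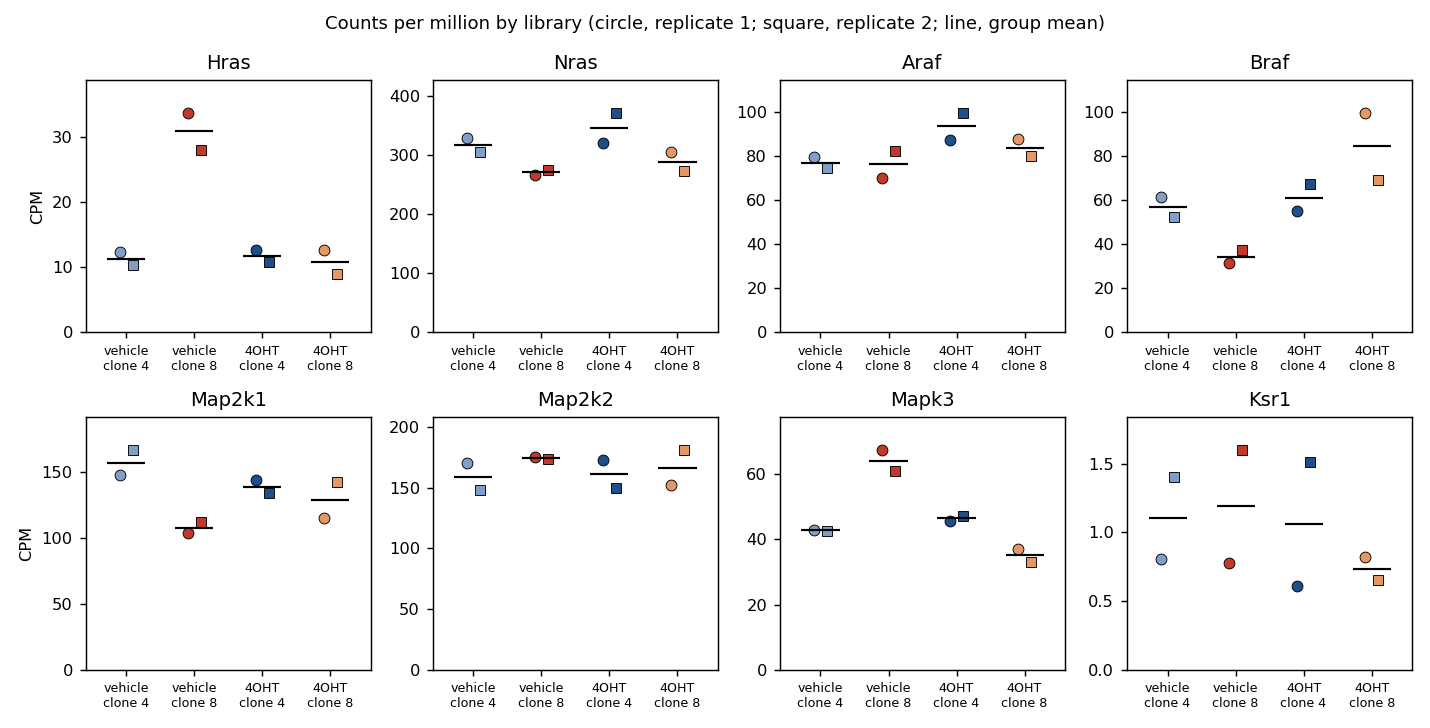
CPM of the 8 genes in every library, with each panel starting at 0, circles for replicate 1, squares for replicate 2 and lines for group means. The vehicle clone 8 libraries are highest for Hras (33.8 and 28.1) and Mapk3 (67.4 and 60.9) and lowest for Braf (31.4 and 37.5) and Map2k1 (104 and 112).

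The same values can be read as the share that 1 paralog holds of a pair, in CPM per kb. Hras held 5.11% and 4.62% of the sum of Hras and Nras in vehicle clone 4, 15.4% and 12.8% in vehicle clone 8, 5.37% and 4.02% in 4OHT clone 4, and 5.62% and 4.52% in 4OHT clone 8. Braf held 17.4% and 17.7% of the sum of Araf and Braf in vehicle clone 8 and 34.9% and 29.0% in 4OHT clone 8. In clone 4 it held between 22.9% and 26.8%, so its share was lowest in vehicle clone 8 and highest in 4OHT clone 8. Map2k1 held between 49.9% and 65.3% of the MEK sum and was lowest in vehicle clone 8. With the longest transcript as length its share was below that of Map2k2 in 7 of 8 libraries, at 37.1% and 39.0% in vehicle clone 8 and between 42.8% and 52.7% elsewhere. So vehicle clone 8 was lowest with either length, while which MEK gene was higher depended on the length.

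**Figure D4:**
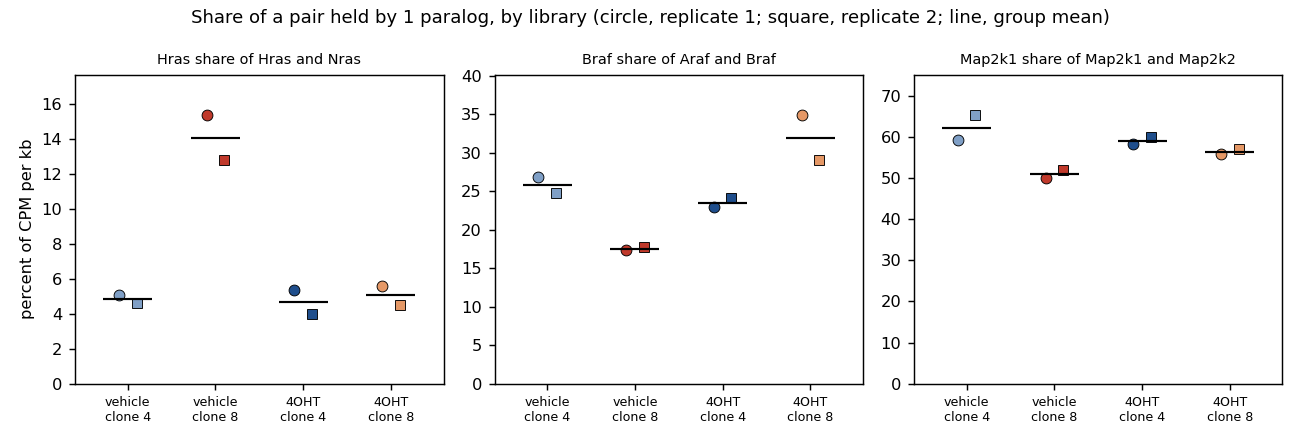
Share of a pair of paralogs held by 1 of them in each library, in percent of CPM per kb and with axes from 0; circles are replicate 1, squares replicate 2 and lines group means. The Hras share is 15.4% and 12.8% in vehicle clone 8 and at most 5.62% in the other 6 libraries.

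The clones were also compared with 4OHT present. In the contrast of 4OHT clone 8 with 4OHT clone 4, chosen after seeing the data, 0 of 8 members were called by edgeR (0.202% of all genes). Braf was higher and Mapk3 lower at an unadjusted p under 0.05 (18.0% of all genes), and DESeq2 called 0 of 8 (5.54%). The log2 difference was -0.12 for Hras (SE 0.23, adjusted p = 0.842), 0.47 for Braf (SE 0.20, adjusted p = 0.264), -0.40 for Mapk3 (SE 0.14, adjusted p = 0.179) and -0.11 for Map2k1 (SE 0.14, adjusted p = 0.738). For Hras, 2 SE on either side ran from -0.57 to 0.34, beside 1.45 (SE 0.23) between the vehicle groups. The gap between these contrasts is the difference of the responses given above (-1.56, adjusted p = 0.0447), and not a further test. That call did not hold in every fit that left out a library. For Mapk3, 2 SE on either side ran from -0.67 to -0.13 and for Braf from 0.06 to 0.87.

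Markers of the epiblast and of tissue outside it also differed between the groups, and not all in the pattern of these genes. Extraembryonic ectoderm markers summed to 234 and 278 CPM in vehicle clone 8, and to between 565 and 862 CPM in the other 6 libraries. In the clone 8 response 10 of the 12 rose and 0 fell (83.3% rose, beside 8.00% of all genes). Among them were Esrrb (2.04, adjusted p = 0.00215), Bmp8b (2.05, adjusted p = 0.00670) and Wnt7b (2.47, adjusted p = 0.00699). Between the vehicle groups 9 of the 12 were lower in clone 8 (75.0%, beside 4.31% of all genes). For the clone 4 response edgeR called 0 of the 12. At an unadjusted p under 0.05, 3 were lower there (25.0%, beside 3.68% of all genes), and DESeq2 called 2 lower (16.7%, beside 0.469%). Visceral endoderm markers summed to 1210 and 1630 CPM in vehicle clone 4 and 3120 and 3230 in vehicle clone 8. They summed to 4020 and 4750 CPM in 4OHT clone 4 and 958 and 2250 in 4OHT clone 8. In clone 8, 5 of these 15 fell and 0 rose (33.3% fell, beside 8.60% of all genes). In vehicle, 6 were higher in clone 8 (40.0%, beside 4.06% of all genes higher). For the difference of the responses, 8 were lower (53.3%, beside 1.75% of all genes lower). In clone 4 edgeR called 0, while 14 were higher at an unadjusted p under 0.05 (93.3%, beside 6.22% of all genes higher). Epiblast markers moved as well. By edgeR 4 of the 10 fell in clone 8 and 0 rose (40.0% fell, beside 8.60% of all genes). These were Sox2 (-0.79, adjusted p = 0.0202), Pou3f1 (-0.67, adjusted p = 0.0178), Pou5f1 and Utf1. Sox2 (1.04, adjusted p = 0.0208) and Pou3f1 (0.87, adjusted p = 0.0206) were higher in vehicle clone 8 than in vehicle clone 4. That is 20.0% of the list, beside 4.06% of all genes. In that contrast 5 of the 10 had positive and 5 negative values, with a median of 0.03. The 10 epiblast markers summed to 6640 and 7040 CPM in vehicle clone 4 and 6450 and 6890 in vehicle clone 8. They summed to 5970 and 5580 CPM in 4OHT clone 8, the lowest group. The part of any of these tissues in the levels of the 8 genes was not tested.

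**Figure D5:**
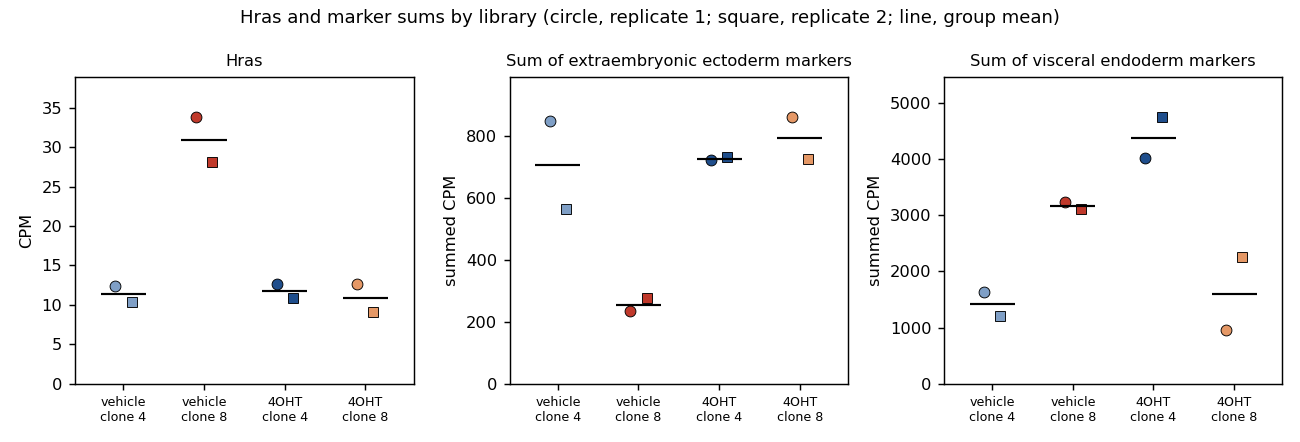
Hras in CPM and the summed CPM of 12 extraembryonic ectoderm and 15 visceral endoderm markers in each library, with axes from 0; circles are replicate 1, squares replicate 2 and lines group means. Vehicle clone 8 is highest for Hras and lowest for the extraembryonic ectoderm sum (234 and 278), and 4OHT clone 4 is highest for the visceral endoderm sum (4020 and 4750).

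The clone 8 response also differed with transcript length. Length here is that of the longest annotated transcript of a gene. The median log2 fold change was -0.36 in the fifth of genes with the shortest transcripts and 0.26 in the fifth with the longest. In clone 4 these medians were -0.08 and 0.01. With this trend and that of GC content removed, a setting chosen after seeing the data, the clone 8 response was -1.53 for Hras (adjusted p = 0.00948), 1.02 for Braf (adjusted p = 0.0147) and -0.72 for Mapk3 (adjusted p = 0.0148), all still called. The difference of the responses was -1.51 for Hras (adjusted p = 0.0437) and -0.78 for Mapk3, no longer called (adjusted p = 0.0597). Between the vehicle groups, Hras was at 1.48 (adjusted p = 0.0173), and the calls of Mapk3 (0.43, adjusted p = 0.0913) and Map2k1 (-0.51, adjusted p = 0.0631) were lost. Scaling mattered for the level of all genes: with library totals in place of TMM, the median of all genes in the clone 8 response moved from 0.07 to 0.19, and the calls went from 1465 higher and 1576 lower to 2102 higher and 1074 lower. Under that scaling Hras (-1.38), Braf (1.42) and Mapk3 (-0.74) were still called in clone 8.

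Genes that feed into or branch from the cascade were read from 5 lists with 64 genes in all, each of them tested. In the clone 8 response 6 rose and 6 fell, or 18.8% of them beside 16.6% of all genes, while 0 were called by edgeR in clone 4 and with both clones in 1 fit. At an unadjusted p under 0.05, 4 were higher and 1 lower in clone 4, and 6 were higher and 5 lower with both clones. These are 7.81% and 17.2% of the 64, beside 9.90% and 16.9% of all genes. So in clone 8, in clone 4 and with both clones the share lay near that of all genes. Between the vehicle groups the share was larger. There 6 were higher and 5 lower in clone 8, or 17.2% of the 64 beside 8.37% of all genes. By DESeq2 it was 39.1% of the 64 in that contrast, beside 16.7% of all genes. DESeq2 called 1 in clone 4 and 4 with both clones (1.56% and 6.25%, beside 2.55% and 5.75% of all genes). The median log2 fold change of the 64 in clone 8 was 0.20, beside 0.07 for all genes. Among 16 Ras activators, adaptors and GTPase-activating proteins, 3 rose in clone 8: the receptor adaptors Gab1 (1.52, SE 0.29, adjusted p = 0.0129), Frs2 (1.37, SE 0.24, adjusted p = 0.0113) and Shc1 (0.51, SE 0.13, adjusted p = 0.0289). All 3 were also lower in vehicle clone 8 than in vehicle clone 4 (-1.43, -1.47 and -0.74), the order of Braf. One gene of this list fell, Rasa1, a GTPase-activating protein that switches Ras off, named here after its value was seen. In all, 25.0% of this list was called in clone 8, beside 16.6% of all genes. Of the 8 enzymes of Ras lipidation, edgeR called 0 in each of these comparisons. At an unadjusted p under 0.05, 1 was higher and 1 lower in clone 8, where 17.3% of all genes were higher and 15.8% lower. Under that rule 4 were lower in vehicle clone 8 than in vehicle clone 4, beside 13.4% of all genes. In clone 4, 1 was higher, and with both clones 2 were, beside 6.22% and 8.8% of all genes. DESeq2 called 0 in clone 8 and 3 lower in vehicle clone 8, where 8.38% of all genes were lower. It called 1 higher in clone 4 and 1 with both clones, beside 2.09% and 2.6% of all genes.

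Of 16 scaffolds, chaperones and regulators of Raf and MEK, 2 rose in clone 8, the leucine-rich repeat protein Shoc2, which helps to dephosphorylate and free Raf kinases (0.82, SE 0.23, adjusted p = 0.0416), and Brap (1.13, SE 0.27, adjusted p = 0.0241). The 3 that fell were Pebp1, an inhibitor of Raf binding to MEK (-0.55, SE 0.10, adjusted p = 0.0129), the Raf chaperone Hsp90ab1 (-0.56, SE 0.12, adjusted p = 0.0195) and the phosphatase subunit Ppp1cc (-1.11, SE 0.27, adjusted p = 0.0269). The share called was 31.2% of this list, beside 16.6% of all genes. Of 8 kinases that ERK phosphorylates, Rps6ka6 rose in clone 8 (0.69, SE 0.13, adjusted p = 0.0129) and Mknk2 fell (-0.95, SE 0.28, adjusted p = 0.0487). These are 25.0% of that list, beside 16.6% of all genes. For the difference between clones, edgeR called Rps6ka6 alone of the 64 (0.87, adjusted p = 0.0462). That is 1.56% of the 64, beside 2.83% of all genes. DESeq2 called 5 higher and 4 lower of the 64 for that difference, or 14.1% beside 10.2% of all genes. Of 16 kinases of the JNK, p38 and ERK5 pathways, 1 was called in clone 8 (6.25%, beside 16.6% of all genes). It was Mapk14, which encodes p38 alpha (-0.68, SE 0.19, adjusted p = 0.0385). The share of each of these lists rests on few genes.

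Transcriptional targets of ERK were listed as a readout of the induction. Of 22 listed targets, 10 rose in clone 8 and 1, the feedback inhibitor Spred1, fell. Of all genes, 8.00% rose and 8.60% fell there. The median log2 fold change of the 22 was 0.77 beside 0.07 for all genes. Several targets already stood low in vehicle clone 8. Between the vehicle groups 15 of the 22 had negative values, with a median of -0.28 beside 0.00 for all genes. In that contrast 3 were called lower in clone 8 and 1, Spred1, higher, or 18.2% beside 8.37% of all genes. DESeq2 called 6 lower and 1 higher, or 31.8% beside 16.7% of all genes. Between the 4OHT groups edgeR called 0. In clone 4 and with both clones in 1 fit, edgeR called 0. At an unadjusted p under 0.05, 5 were higher in clone 4 and 11 with both clones, where 6.22% and 8.8% of all genes were. DESeq2 called 2 and 5 higher, beside 2.09% and 2.6% of all genes. The Egr1 response was 5.25 in clone 8 on the log2 scale (SE 0.73, adjusted p = 0.00834) and 2.32 in clone 4 (SE 0.64, adjusted p = 0.234), and their difference did not pass (2.93, adjusted p = 0.108). The 4OHT clone 8 libraries were at 74.7 and 379 CPM, the former within the 55.4 and 75.9 CPM of 4OHT clone 4. Without the higher one, replicate 2, the clone 8 response of Egr1 was 3.65 (adjusted p = 0.00362), and without replicate 1 of vehicle clone 8 it did not pass (5.20, adjusted p = 0.0951). The feedback inhibitors Dusp6, a phosphatase of ERK, and Spry4 rose in clone 8 by 0.79 (adjusted p = 0.0200) and 0.91 (adjusted p = 0.0213) and were at 0.15 and 0.09 in clone 4. Neither passed without replicate 1 of vehicle clone 8 (0.63, adjusted p = 0.197, and 0.58, adjusted p = 0.147), and Dusp6 did not without replicate 2 of 4OHT clone 8 (0.51, adjusted p = 0.0658). The list was drawn up with results of these data known.

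Promoters of the members were read for short motifs. RefSeq promoters of GRCm38.p6 were at hand for 7 of the 8 members (Mapk3 was not among them), each from 250 bases before the start to 50 after it. The 6 motifs searched on both strands were the cAMP response element TGACGTCA, the GC box GGGCGG, the E-box CACGTG, the ETS motif CCGGAAG, the AP-1 motif TGANTCA and the CCAAT box CCAAT. They are held by 1.79%, 35.7%, 7.15%, 8.86%, 7.81% and 37.4% of 32851 promoters. The 250 bases before the start are shown for Braf and Hras, the members with the largest rise and the largest fall in clone 8, at chr6:39725464-39725713 and chr7:141194005-141194254, both on the minus strand. Capitals mark TGACGTCA in Braf, with 2 matches, and GGGCGG on either strand in Hras, with 3 matches.
Braf: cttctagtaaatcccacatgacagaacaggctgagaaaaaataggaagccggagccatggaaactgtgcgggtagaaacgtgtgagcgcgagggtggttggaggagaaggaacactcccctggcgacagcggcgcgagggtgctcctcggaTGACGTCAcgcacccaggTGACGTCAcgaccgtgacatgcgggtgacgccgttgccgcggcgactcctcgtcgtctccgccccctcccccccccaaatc
Hras: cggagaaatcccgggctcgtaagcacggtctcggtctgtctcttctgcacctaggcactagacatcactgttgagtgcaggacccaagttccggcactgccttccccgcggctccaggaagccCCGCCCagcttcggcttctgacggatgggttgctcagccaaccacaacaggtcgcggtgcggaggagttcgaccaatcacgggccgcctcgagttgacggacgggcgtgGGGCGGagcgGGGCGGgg
Among the 7 members, Braf alone held TGACGTCA, and the promoter of Nras, which did not pass the test, held GGGCGG 3 times as well. A match is a description of the letters and not a bound site.

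For each member, the 2 most similar of 8859 well-expressed genes over the 8 libraries were found by the root-mean-square difference of centred log2 CPM. For Hras they were Hnrnpd (0.086) and Alyref (0.108), where the spread of Hras itself by the same measure was 0.652. Hnrnpd, an RNA-binding protein gene, was at 155 and 142 CPM in vehicle clone 8 and between 41.9 and 65.8 elsewhere. For Mapk3 they were the mitochondrial genes Ndufb5 (0.038), a subunit of respiratory complex I, and Mrpl14 (0.051), a mitochondrial ribosomal protein, against a spread of 0.318. For Braf they were Dgke (0.107) and Large2 (0.123), against 0.489, and for Map2k1 Wdr45b (0.050) and Ube4b (0.053), against 0.216. Nras (Ahsa2 and Fbxw5), Araf (Tjp3 and Kdf1) and Map2k2 (Patz1 and Cwc27) varied little, with spreads of 0.151, 0.146 and 0.110, and for Ksr1 (Coch and Dppa3) the nearest gene differed by 0.228.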

How the data were processed

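The deposited file is a single table that holds raw counts for Ensembl gene identifiers in the 8 libraries. Per the submitters' processing notes, bcl2fastq 2.19.1, STAR 2.5.3a and the mm10 build were used; the counting program, annotation and use of strand are not given in the sources used here. Symbols were matched for 52489 of 52636 identifiers, and the 147 others held at most 0.0155% of the counts of a library. Every sample column was used.

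Counts were tested with edgeR 4.0.16 in R 4.3.3: filterByExpr over the 4 groups with a minimum count of 10, TMM scaling, glmQLFit and glmQLFTest, and Benjamini-Hochberg adjustment over all 18321 tested genes, with calls at 0.05. An additive fit of clone and treatment gave the response over both clones, and a fit of the 4 groups gave the other contrasts. The SE is the log2 fold change divided by the square root of F. The biological coefficient of variation was 0.321 and 0.266 in these fits. A prior count of 2 was added for log2 CPM. The scripts were tested on simulated data.

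Lengths and coding sequences came from the GENCODE M21 annotation of GRCm38. Alternatives were DESeq2 1.42.0, RLE factors, library totals, other filters, a replicate block, other lengths, removal of length and GC trends (chosen after seeing the data), and leaving out each library. All 8 members and 4 related genes are named (other genes of these tiers are not reported here), with Esr1, Egr1, Dusp6 and Spry4, and from other lists up to 3 called genes per comparison by lowest p. Members and lists were chosen with earlier results of these data known.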

Additional observations from a re-analysis of the deposited data

Results flagged for a closer look

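The response of Hras to 4OHT differed between the clones by -1.56 on the log2 scale (clone 8 minus clone 4), and that of Mapk3 by -0.99. Both were singled out because the test of the difference itself passed. In both, vehicle clone 8 was the highest group. Of 16 sets of 4 libraries (each member in each treatment), none held a library far from the others by Dixon's limit, where chance alone gives about 0.8 such sets. Each set pools 2 libraries of each clone, so 2 libraries that stand apart together, as those of vehicle clone 8 do for Hras, cannot be found in this way.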

How the results depend on the processing

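Of the members called, the counts of 3 in clone 8 and 0 in clone 4 were the same under every alternative other than leaving out a library. With both clones, 2 members were called without the filter on low counts and 2 by the mean of within-clone contrasts, in place of 0. For the difference, 1 was called with length and GC trends removed and 0 with library totals, and for the vehicle groups 1 with these trends removed. Leaving out 1 library gave 0 to 0 (both clones), 0 to 0 (clone 4), 0 to 3 (clone 8), 0 to 3 (difference), 0 to 4 (vehicle groups) and 0 to 0 (4OHT groups) members called, and over all genes 0 to 1, 0 to 267, 0 to 3179, 0 to 1205, 0 to 2518 and 0 to 704. Where 1 library remained in a group, it was taken to vary like the others. No paired analysis was taken as the result, since same-numbered replicates hardly deviated together (r = 0.1 in clone 4 and 0.0617 in clone 8, over 9160 genes); with a replicate block 3 members were called in clone 8 and 2 for the difference.

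Counts over all genes moved more. With both clones they were 1 as reported, 0 with at least 10 counts in every library, 1053 with DESeq2, 0 with the trends removed, 1337 without a filter, 0 with the replicate block and 1063 by the mean of contrasts. In clone 4 the reported 7 became 78 (at least 10 counts), 468 (DESeq2), 728 (no filter) and 0 (replicate block). For the difference 519 became 1864 (DESeq2) and 2114 (no filter), and its split of 198 higher and 321 lower became 214 and 197 with library totals. For the vehicle groups 1534 became 3064 (DESeq2) and 2901 (no filter), and for the 4OHT groups 37 became 150 (at least 10 counts), 1015 (DESeq2), 128 (trends removed), 19 (library totals) and 1414 (no filter). The cause of these shifts was not tested.

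Of 703 log2 fold changes of the members recomputed under these alternatives, 618 kept their direction and their side of the threshold, 33 lost a call, 11 gained one and 41 changed direction, none of these 41 a called value. With the trends removed, Nras was at -0.012 (both clones) and -0.134 (clone 8), Araf at -0.003 (clone 8) and 0.065 (vehicle groups), Hras at -0.017 and Map2k2 at -0.073 (clone 4), and Map2k2 at 0.043 (difference). With library totals, Map2k2 was at 0.047 (both clones), 0.056 (clone 8) and 0.018 (difference) and Nras at 0.076 (difference). Araf was at 0 for the vehicle groups with DESeq2 and with RLE factors. Leaving out 1 library gave, with both clones, -0.073 to 0.101 for Map2k1 and -0.087 to 0.033 for Map2k2; in clone 4, -0.073 to 0.196 for Hras, -0.052 to 0.239 for Braf, -0.090 to 0.129 for Map2k2 and -0.847 to 0.461 for Ksr1; in clone 8, -0.001 to 0.222 for Araf and -0.204 to 0.053 for Map2k2. It gave for the difference -0.138 to 0.080 for Nras, -0.224 to 0.034 for Map2k2 and -1.154 to 0.153 for Ksr1. For the vehicle groups it gave -0.121 to 0.101 for Araf and -0.477 to 0.571 for Ksr1, and for the 4OHT groups -0.383 to 0.1 for Hras, -0.276 to 0.039 for Map2k1, -0.092 to 0.165 for Map2k2 and -1.047 to 0.261 for Ksr1. Ksr1 had 28 to 109 counts per library and Mras and Ksr2 lay below 2 CPM, and how far depth limits them was not tested.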
